A study of Caenorhabditis elegans with 5 samples.

Results

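Chromosome IV of the nematode Caenorhabditis elegans carried 920 of the 6159 regions in which the tagged transcription factor ALR-1-GFP was called as bound in L2 larvae. The members are all rows of the combined peak list that lie on chromosome IV, with no further cut on any value. The chromosome and the comparisons were chosen with earlier results of these data known. The replicate 1 list had 262 peaks on IV and the replicate 2 list 655. ChIP-seq, in which DNA crosslinked to a protein is precipitated with an antibody and sequenced, was run on 3 ChIP and 2 input DNA libraries. Of the ChIP libraries, 2 are labelled replicate 1 and 1 is labelled replicate 2. Both input libraries are labelled replicate 1. All 5 libraries came from hermaphrodites of strain OP200, with the unc119(ed3) mutation and the integrated transgene wgIs200, which carries alr-1 with C-terminal TY1, EGFP and FLAG tags and an unc119 copy, grown at 20 °C and fixed with 2% formaldehyde. The strain is 1 line made by bombardment, and whole larvae were used, so a peak does not tell in which cells the factor was bound. ChIP and input worms did not differ in genotype, and whether the replicates were grown separately is not said in the labels. The p-values thus cover only the counting error of peaks taken as independent, and no spread between worms or cultures.

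ALR-1 is a homeodomain protein of the Aristaless family, which in animals works in the nervous system and in the patterning of appendages, and in C. elegans it is known from sensory and motor neurons. Homeodomain proteins bind short AT-rich sites. The autosomes of C. elegans have a central part with little recombination and most of the highly expressed, conserved genes, and arms with more recombination, more repeats and more repressive chromatin. Chromosome IV is known for most of the genes of 21U-RNAs, the Piwi-interacting RNAs (piRNAs) of the worm, which bind the Argonaute protein PRG-1 in the germline and guard it against foreign sequences. These small genes lie mainly in a pair of broad stretches. The 2.5 Mb from 4500000 to 7000000 and the 3.7 Mb that begin at 13500000 were taken for them and are called the first and the second piRNA stretch here. Positions are on build WS190, counted from 1, and it was not checked in that build where the 21U-RNA genes lie. No genome or gene table of that build was used here, so no peak is assigned to a gene and no sequence is printed.

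The peaks on IV reached from 126109 to 17468404, a span of 17.3 Mb. They covered 438 kb, or 2.52% of the span, in the combined list, 129 kb (0.744%) in replicate 1 and 296 kb (1.70%) in replicate 2. The density was 53.0 peaks per Mb in the combined list, 15.1 in replicate 1 and 37.8 in replicate 2. Against chromosomes II, III and V together, the ratio of densities was 0.952 in the combined list, with an exact 95% interval of 0.883 to 1.03 (two-sided exact binomial test, adjusted p = 0.302). It was 1.04 in replicate 1 (0.900 to 1.20, adjusted p = 0.752, same exact test) and 0.992 in replicate 2 (0.906 to 1.08, adjusted p = 0.874, same exact test). No difference from II, III and V together was thus found in any of the 3 lists. The ratio depended on which autosomes stood beside IV. It was 0.856 against I, II, III and V (0.796 to 0.920, exact binomial p = 1.65e-05, unadjusted). In comparisons added after the data were seen it was 0.839 without V (0.775 to 0.909, exact p = 1.33e-05, unadjusted) and 1.03 without III (0.955 to 1.12, exact p = 0.394, unadjusted). All adjusted p-values of densities are Benjamini-Hochberg values over 9 tests, and they count peaks as independent although peaks cluster, so they are too small. Unadjusted p-values and those of Fisher's exact test below count peaks in the same way and can be too small as well.

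Peaks crowded the middle of the chromosome. The span was divided into a left arm and a right arm of 30% each, 5.203 Mb long, and a centre of 40%, 6.94 Mb long, from 5.33 to 12.3 Mb. The centre held 515 combined peaks (74.2 per Mb), the left arm 233 (44.8 per Mb) and the right arm 172 (33.1 per Mb). In replicate 1 the centre held 157 peaks (22.6 per Mb), the left arm 51 (9.80 per Mb) and the right arm 54 (10.38 per Mb). In replicate 2 the centre held 360 (51.9 per Mb), the left arm 170 (32.7 per Mb) and the right arm 125 (24.0 per Mb). The centre was thus the densest section in each list. Its density was 1.91 times that of both arms in the combined list (1.67 to 2.18, exact binomial adjusted p = 1.77e-21). It was 2.24 times in replicate 1 (1.74 to 2.90, adjusted p = 3.23e-10, same exact test) and 1.83 times in replicate 2 (1.56 to 2.14, adjusted p = 5.55e-14, same exact test).

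**Figure D1:**
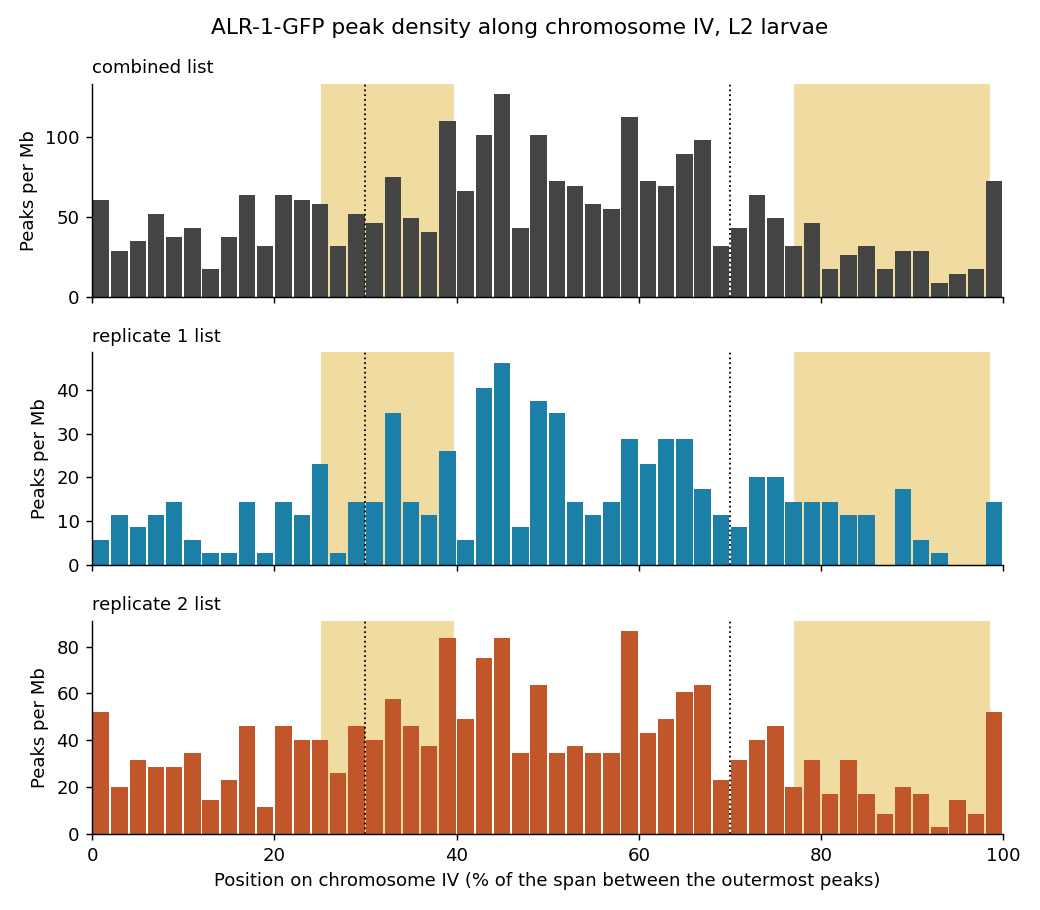
Peaks per Mb in 50 equal bins of chromosome IV for the combined, replicate 1 and replicate 2 lists, against position in percent of the span between the outermost peaks. Shading marks the 2 piRNA stretches and dotted lines the borders of the centre at 30% and 70%: all 3 lists are high in the centre and low in the second stretch, and the last bin is high again in the combined and replicate 2 lists.

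The right arm had 0.738 times the density of the left in the combined list (0.603 to 0.903, exact binomial adjusted p = 0.00635) and 0.735 times in replicate 2 (0.579 to 0.932, adjusted p = 0.0185, same exact test). In replicate 1 the ratio was 1.06 (0.709 to 1.58, adjusted p = 0.874, same exact test), with 54 peaks on the right and 51 on the left. Combined peaks that overlapped both replicate lists were nearly level, with 41 on the left arm and 45 on the right, a ratio of 1.10 (0.703 to 1.72). Those overlapped by replicate 2 alone numbered 114 and 67, a ratio of 0.588 (0.428 to 0.802), and those in neither list 70 and 52 (0.743, 0.509 to 1.08). The right arm was thus lower in the combined and replicate 2 lists. In replicate 1 and among peaks of both lists the intervals included equal arms and also the combined ratio of 0.738, so these few peaks cannot tell them apart. Counting the stronger 50% of combined peaks gave 0.818 for right against left (0.602 to 1.11), which missed the threshold (exact p = 0.205). The split by class was made after the values were seen and was not tested.

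The share of peaks in the centre was close to that of the autosomes most like IV. It was 56.0% on IV and 56.7% on II, III and V in the combined list (Fisher's exact test, two-sided, odds ratio 0.970, adjusted p = 0.701 over 3 lists). It was 59.9% against 62.3% in replicate 1 and 54.96% against 56.6% in replicate 2 (adjusted p = 0.701 for each, same exact test). In 10 equal bins of the span, the combined list on IV had 67 peaks in the second bin, 152 in the fifth and 42 in the ninth. No difference between IV and the other 3 autosomes in the share of the centre was found.

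**Figure D2:**
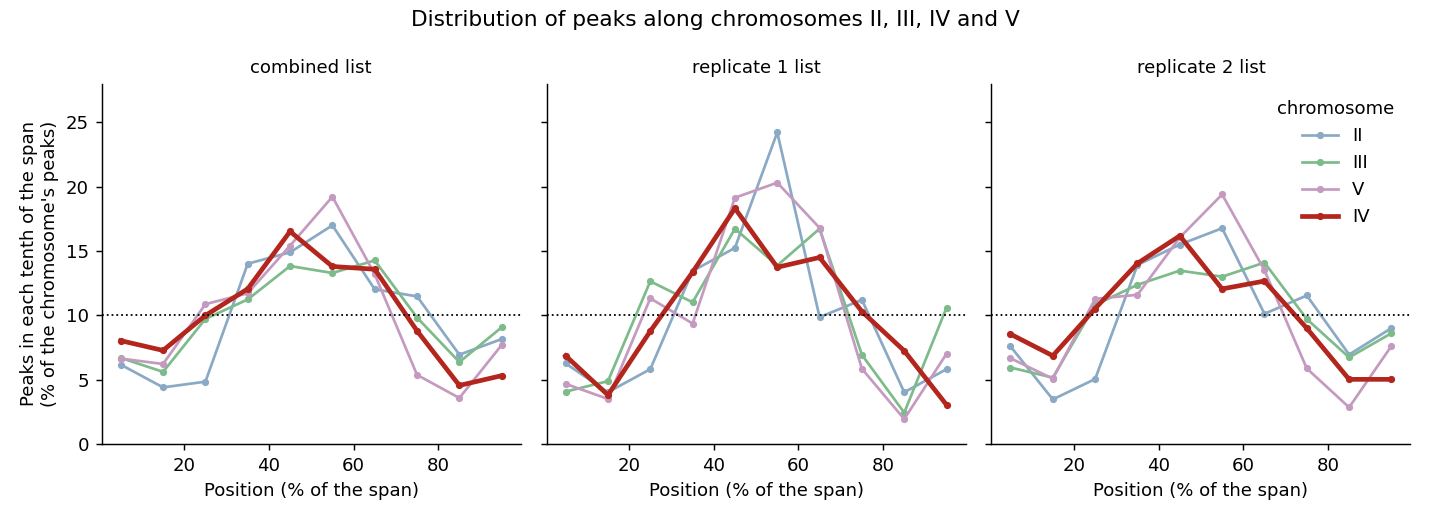
Percent of each chromosome's peaks in each of 10 equal bins of its span for IV (thick line), II, III and V, in the 3 lists; the dotted line at 10% is an even spread. In the combined list IV had 16.5% of its peaks in the fifth bin and 4.57% in the ninth.

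The first piRNA stretch was about as dense as the rest of IV, and the second was sparse. The first held 140 combined peaks, or 56.0 per Mb, and the second 86, or 23.2 per Mb. The rest of IV had 694 peaks, or 62.3 per Mb. Relative to the rest, the first stretch had a ratio of 0.899 in the combined list (exact 95% interval 0.744 to 1.08), 0.919 in replicate 1 (0.637 to 1.297) and 1.09 in replicate 2 (0.885 to 1.34). The second stretch had 0.373 (0.295 to 0.467), 0.435 (0.281 to 0.648) and 0.385 (0.290 to 0.504) in the same order. All 3 lists thus had less than 0.5 times the density of the rest in the second stretch, and for the first stretch every interval included 1. These ratios were planned as a description, with no test.

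Both stretches lie beside parts of the chromosome that differ in density. The border of left arm and centre, at 5.33 Mb, falls inside the first stretch, and the rest of IV pools arms and centre. The centre beyond the first stretch, from 7.0 to 12.3 Mb, had 412 combined peaks or 78.2 per Mb, 23.7 per Mb in replicate 1 and 52.0 per Mb in replicate 2. Inside the first stretch replicate 1 had 16.0 per Mb and replicate 2 had 46.8 per Mb. Within it the combined density was uneven. It was 38.0 per Mb from 4.5 to 5 Mb, 46.0 from 5 to 5.5 Mb, 74.0 from 5.5 to 6 Mb, 46.0 from 6 to 6.5 Mb and 76.0 from 6.5 to 7.0 Mb. The first stretch thus held steps as high as the centre and others near the left arm.

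Around the second stretch the change was sharper. The right arm before it, from 12.3 Mb to its start, had 64 combined peaks or 51.9 per Mb. Inside it, no step of 0.5 Mb had more than 34.0 per Mb, and the step from 16 to 16.5 Mb had 14.0. Beyond it, up to the last peak, 22 combined peaks lay in 0.268 Mb, or 82.0 per Mb. The same end had 16 replicate 2 peaks (59.6 per Mb) and 5 replicate 1 peaks (18.6 per Mb). The last bases of IV were therefore denser than the average centre in the combined and replicate 2 lists, on few peaks and with no test. Replicate 1 had no peak from 16.5 Mb to the end of the second stretch, where replicate 2 had 8 and the combined list 13.

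The sparse second stretch was compared with the same part of II, III and V, from 77.1% to 98.5% of each span, to ask whether it differs from the right arm of another autosome. On IV this part held 9.35% of combined peaks (Wilson 95% interval 7.63 to 11.4%), on II 15.8% (13.6 to 18.3%), on III 16.1% (13.9 to 18.6%) and on V 9.82% (8.08 to 11.9%). Against the other chromosomes together, IV was lower in the combined list (9.35% against 13.9%, Fisher's exact test, two-sided, odds ratio 0.641, adjusted p = 0.00189). It was also lower in replicate 2 (9.31% against 14.0%, odds ratio 0.630, adjusted p = 0.00532, same exact test), but not in replicate 1 (10.7% against 10.2%, odds ratio 1.05, adjusted p = 0.977, same exact test). The difference lay against II and III. Against V alone the odds ratio was 0.947 in the combined list (exact p = 0.754, unadjusted) and 1.011 in replicate 2 (exact p = 1, unadjusted). V thus had a share as low as that of IV in these lists. The same comparison for the first stretch, 25.2% to 39.6% of the span, gave 15.2% on IV and 17.39% on II, III and V (odds ratio 0.853, adjusted p = 0.281, Fisher's exact test). In replicate 1 it gave 15.3% against 18.4% (adjusted p = 0.446, same exact test) and in replicate 2 17.9% against 17.9% (adjusted p = 1, same exact test). Against V alone the first stretch had 15.2% against 18.7% in the combined list (odds ratio 0.781, exact p = 0.0485, unadjusted) and 17.9% against 18.9% in replicate 2 (odds ratio 0.932, exact p = 0.666, unadjusted). These comparisons, of which the pooled ones were adjusted over 6 tests, were unplanned and made only once the values had been looked at. The second stretch had already been found sparse in the same lists when it was compared. Its p-values are therefore no independent test, and the shares are given as a description. All p-values here also count clustered peaks as independent and can be too small.

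Most of the longest empty intervals lay in the piRNA stretches. Between neighbouring combined peaks on IV the median gap was 8.75 kb (interquartile range 2.46 to 23.7 kb), and the smallest was 213 bp. It was 6.51 kb in the centre, 13.3 kb on the left arm and 14.7 kb on the right arm. In the second piRNA stretch the median gap was 29.4 kb (4.82 to 60.8 kb), in the first 7.01 kb (2.12 to 20.4 kb) and elsewhere 8.32 kb (2.28 to 22.0 kb). Gaps over 100 kb numbered 18 and added up to 2.57 Mb. Of these, 13 had their midpoint in a piRNA stretch, 4 in the first and 9 in the second. Both stretches together make up 35.8% of the span. The second stretch was sparse, so the long gaps there are another view of its low density and not a separate result. By section, 11 of the 18 were on the right arm, 5 on the left arm and 2 in the centre. On the other autosomes gaps over 100 kb numbered 13 on II, 7 on III and 30 on V, so IV lay between III and V.

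The longest gap ran from 4810738 to 5042082, over 231 kb of the first piRNA stretch, and it was empty in both replicate lists as well. Next came 14035012 to 14260554, with 226 kb in the second stretch, where replicate 2 had 1 peak with a strength of 2.48. Here and below the strength of a peak is −log10 of the q-value that the authors deposited with it, and every q-value was below 0.01. The gap from 16865934 to 17084314 measured 218 kb, that from 13430439 to 13619227 189 kb and that from 16664086 to 16845310 181 kb, and all 3 were empty in the replicate lists too. The 5 longest gaps thus all had their midpoint in a piRNA stretch, 1 in the first and 4 in the second. A stretch without a call is not a stretch without binding, since the depth of the libraries was not used here. How well reads map in these stretches was not tested.

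**Figure D3:**
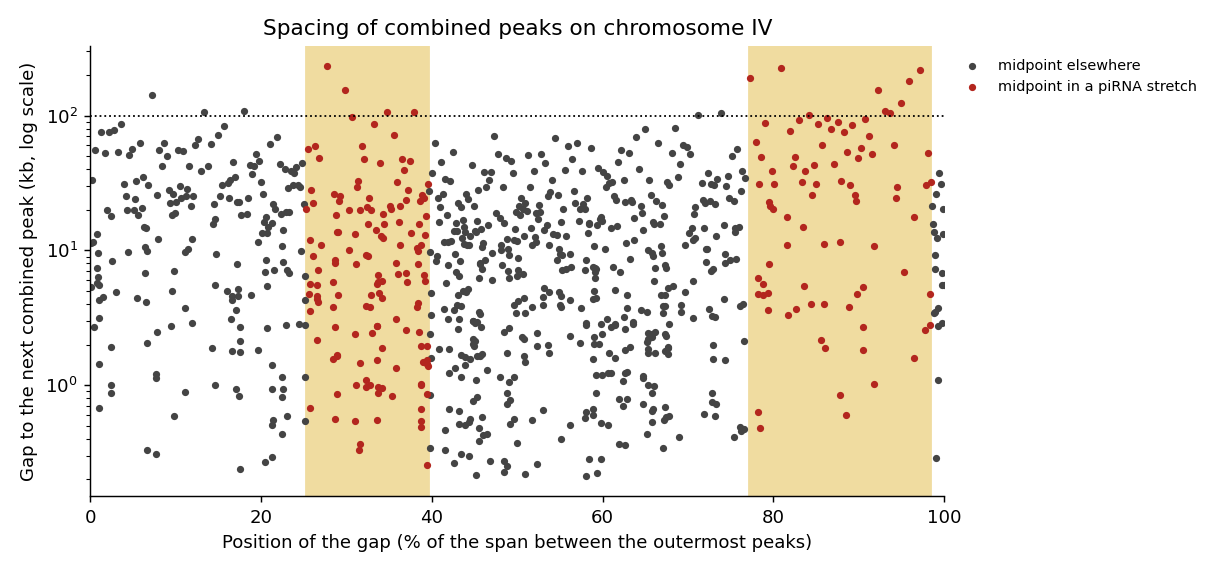
Length of each gap between neighbouring combined peaks (kb, log axis) against its position in percent of the span; each point is 1 of 919 gaps and the dotted line marks 100 kb. Red points have their midpoint in a piRNA stretch (shaded), and these are 13 of the 18 points above the line.

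The replicate lists had longer gaps with medians of 31.4 kb in replicate 1 and 14.4 kb in replicate 2. The longest of replicate 1 ran over 1046 kb, from 16203672 to 17249694 at the end of the second piRNA stretch. Replicate 2 had 13 peaks inside it, with strengths from 2.18 to 8.04 and a median of 3.48, and the combined list 18, with strengths from 2.14 to 8.10. The longest of replicate 2, 16049221 to 16415108, measured 366 kb and overlapped that of replicate 1. It held 1 replicate 1 peak with a strength of 2.31 and 2 combined peaks. In windows of 100 kb, 5 of the 37 windows in the second stretch had no combined peak, against 1 of 25 in the first and 0 of 112 elsewhere. On this fixed grid no window outside the piRNA stretches was thus empty in the combined list, whereas replicate 1 had 30 of 112 and replicate 2 had 4 of 112 empty there. Combined gaps over 100 kb did occur outside the stretches, 5 in number and up to 142 kb long, but none filled a window of the grid.

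At the other end of the range, peaks lay close together. Of the 919 gaps, 117 (12.7%) were under 1 kb, 15.7% in the centre, 9.44% on the left arm and 8.19% on the right arm. The shares on II, III and V were 14.3%, 13.53% and 12.2%. With peaks joined across gaps of up to 1 kb, 705 peaks stood alone, 81 groups had 2 peaks, 15 had 3 and 2 had 4. The groups of 4 ran from 3819438 to 3822397 on the left arm and from 8585027 to 8588933 in the centre. No group on IV was longer than 4 peaks. The fullest windows of 100 kb were all in the centre. The window from 10300001 to 10400000 held 16 combined, 3 replicate 1 and 9 replicate 2 peaks, that from 8000001 to 8100000 held 15, 5 and 10, and that from 7600001 to 7700000 held 14, 7 and 13, with 14 combined peaks also in 2 further windows of the centre. The window with the most combined peaks thus had fewer replicate peaks than the other two.

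In the combined list the median width on IV was close to that on II, III and V. Combined peaks had a median width of 381 bp, with an interquartile range of 280 to 544 bp. The medians of the replicate lists were 390 bp in replicate 1 (304 to 517 bp) and 365 bp in replicate 2 (297 to 522 bp). On II, III and V the combined medians were 359, 368 and 378 bp. By section the combined median was 387 bp on the left arm, 374 bp in the centre and 405 bp on the right arm. It was 375 bp in the first piRNA stretch and 417 bp in the second. Widths therefore varied little along the chromosome beside their spread. Of the combined peaks, 57 (6.20%) exceeded 1000 bp and 10 exceeded 2000 bp. At the low end 104 (11.3%) were under 200 bp and 29 under 100 bp, down to 2 bp, whereas replicate 1 had 7 peaks under 200 bp and replicate 2 had 23.

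Among the 5 widest combined peaks, 3 lay in the second piRNA stretch and 1 just beyond it. The widest, at 4468060 to 4474380, measured 6321 bp and ended shortly before the first stretch. It had a strength of 13.4 and overlapped 2 peaks of each replicate list, which covered 48.6% of it in replicate 1 and 44.5% in replicate 2. Those at 14609776 to 14614605 (4830 bp, strength 10.1), 14032457 to 14035011 (2555 bp, 14.0) and 14620072 to 14622595 (2524 bp, 2.18) overlapped replicate 2 peaks and no replicate 1 peak. The wide calls in the second stretch thus rested on replicate 2 and the combined list. The peak at 14032457 to 14035011 borders the second longest gap of the chromosome.

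Another of these wide peaks lay at 17277203 to 17281678, in the dense end beyond the second stretch, and measured 4476 bp. Replicate 1 had its strongest peak of the whole chromosome there, with a strength of 17.5 over 98.2% of the region. Replicate 2 had 4.08 over 12.7% of it, and the combined list had 9.10. The replicate 2 median on IV was 3.84, so the strongest replicate 1 call of the chromosome was near the middle of the replicate 2 list.

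The strongest peak of IV ranked 19 among all combined peaks. Of the 615 strongest combined peaks of the series, 85 lay on IV, which is 9.24% of its peaks, beside 7.73% on II, 9.73% on III and 8.03% on V. The 10 strongest on IV all overlapped both replicate lists, with 5 in the centre, 2 on the left arm and 3 on the right arm. The first, at 13118628 to 13119302 on the right arm, had strengths of 35.1 in the combined list, 5.81 in replicate 1 and 27.3 in replicate 2. The second, at 10461771 to 10462202 in the centre, had 30.8, 12.03 and 17.9. Replicate 2 had its strongest peak of the chromosome at the first position, and the second position ranked 3 on IV in replicate 1.

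The peak at 10341624 to 10343007, 1384 bp wide and inside the fullest window, had 28.1 in the combined list, 3.02 in replicate 1 and 25.3 in replicate 2. In replicate 1 it ranked 124 of 262 on IV, in replicate 2 it ranked 2. The peak at 9089348 to 9091454 was the opposite case, with 24.6 in the combined list, 13.04 in replicate 1 and 8.55 in replicate 2. It was the only one of the 10 with the higher strength in replicate 1. The peaks at 12404127 to 12404552 (27.3, 10.7 and 20.7 in the combined, replicate 1 and replicate 2 lists), 11452850 to 11453294 (26.1, 9.49 and 15.4) and 12999975 to 13000445 (23.9, 5.98 and 16.1) were each under 500 bp wide. That at 7452396 to 7454128 was 1733 bp wide and had 23.0, 5.06 and 15.8.

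The first piRNA stretch held 2 of the 10, and the second none. The peak at 5054305 to 5054823 had strengths of 25.1, 7.74 and 15.4 in the same order of lists, and the peak at 4749899 to 4750344 had 23.6, 6.76 and 23.6. The longest gap of the chromosome lies between them. Strong calls were thus found on each side of it.

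The combined peaks were then marked by their overlap with the replicate lists, where overlap means at least 1 bp shared. Both lists overlapped 207 of the 920 peaks, which is 22.5% (Wilson 95% interval 19.9 to 25.3%) against 20.0% of all combined peaks of the series. Replicate 2 alone overlapped 402 (43.7%, 40.5 to 46.9%; 41.1% over the series) and replicate 1 alone 50 (5.43%, 4.15 to 7.09%; 5.67% over the series). Neither list overlapped 261, which is 28.4% (25.6 to 31.4%) against 33.2% over the series. Chromosomes II, III and V had 30.02%, 29.4% and 31.4% in neither list. No difference between IV and II, III and V in the share in both lists was found (22.5% against 19.8%, Fisher's exact test, two-sided, odds ratio 1.18, adjusted p = 0.162 over 2 tests). With a reciprocal overlap of 50% the odds ratio was 1.25 (exact p = 0.0256, unadjusted), and against all 5 other chromosomes 1.19 (exact p = 0.0443, unadjusted). No difference was found between the centre and the arms of IV either (23.5% against 21.2%, odds ratio 1.14, adjusted p = 0.427, same exact test).

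**Figure D4:**
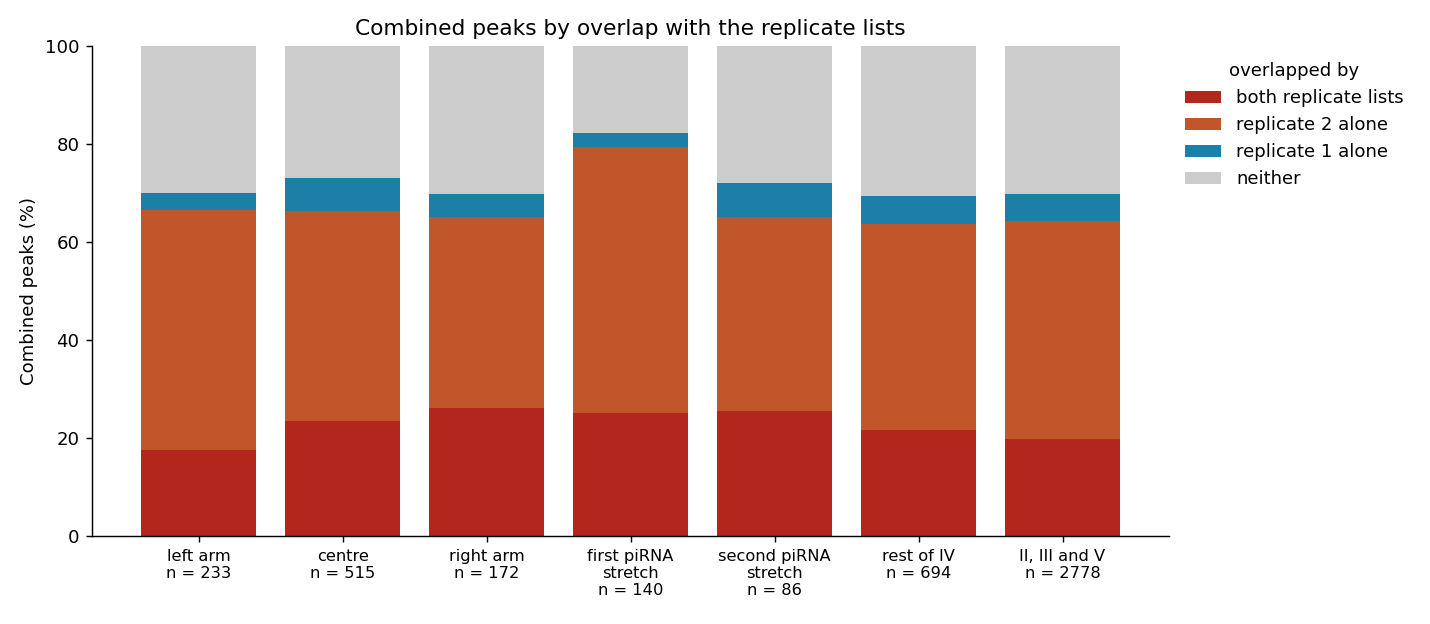
Percent of combined peaks overlapped by both replicate lists, by replicate 2 alone, by replicate 1 alone or by neither, for the sections and piRNA stretches of IV, the rest of IV outside these stretches, and II, III and V together (n peaks under each bar). The share in neither list is 17.9% in the first piRNA stretch and 30.5% in the rest of IV.

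By section, 41 of 233 combined peaks on the left arm overlapped both lists (17.6%, 13.2 to 23.0%) and 45 of 172 on the right arm (26.2%, 20.2 to 33.2%). In the first piRNA stretch 25 of 140 peaks were in neither list (17.9%, 12.4 to 25.03%), in the second 24 of 86 (27.9%, 19.5 to 38.2%) and in the rest of IV 212 of 694 (30.5%, 27.2 to 34.1%). The intervals of the first stretch and the rest do not overlap, but this contrast was noticed among many and not tested. Combined peaks in the first stretch had the higher median strength, 4.86 against 3.60 in the second and 3.88 in the rest. Peaks in neither list were weak, with a median strength of 2.54 on IV, so these medians are not independent of that share.

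The classes were ordered in strength and width. Since the list is named as that of the combined replicates, its strengths are not independent of the overlap with the replicate lists. Peaks in both lists had a median strength of 10.1 (interquartile range 7.17 to 13.3), those in replicate 2 alone 4.24 (3.26 to 5.81), those in replicate 1 alone 4.05 (3.49 to 4.94) and those in neither 2.54 (2.21 to 2.96). Their median widths were 454, 402, 363 and 271 bp. Of the 230 strongest peaks, 162 were in both lists and 0 in neither. Of the 230 weakest, 0 were in both and 166 in neither. The strongest peak in neither list, at 11573614 to 11574677, ranked 290 on IV with a strength of 5.87. Peaks in neither list lay a median of 4.94 kb from the nearest replicate peak, 49 of 261 within 1 kb and 85 more than 10 kb away.

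From the side of the replicate lists, 209 of the 262 replicate 1 calls on IV had a replicate 2 call at the same place, or 79.8% (74.5 to 84.2%) against 76.1% over the series. In replicate 2, 209 of 655 calls shared at least 1 bp with replicate 1, or 31.9% (28.5 to 35.6%) against 31.0% over the series. By section, the replicate 2 share was 24.7% on the left arm (18.8 to 31.7%), 33.9% in the centre (29.2 to 38.9%) and 36.0% on the right arm (28.1 to 44.7%). Replicate 1 peaks were overlapped at 82.4%, 77.7% and 83.3% in the same order. In the combined list, 3 replicate 1 peaks of IV had no counterpart, or 1.15% against 2.15% over the series. For replicate 2 it was 40 peaks, or 6.11% against 5.13% over the series.

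Some peaks stood in 1 replicate list alone although they were strong in it. The strongest such replicate 1 peak, at 10701995 to 10702484, had a strength of 9.41, ranked 9 on IV in its list and lay 19515 bp from the nearest replicate 2 peak. The next, at 10773982 to 10774408, had 5.54. The strongest such replicate 2 peak, at 14032408 to 14034919, is the wide call beside the second longest gap. It had a strength of 19.8, ranked 6 on IV in its list and lay 31173 bp from the nearest replicate 1 peak, and the combined list gave it 14.0. The next, at 6809545 to 6810298 in the first piRNA stretch, had 17.3 and a replicate 1 peak 2508 bp away. All 4 had a counterpart in the combined list.

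At 203 positions on IV each list had exactly 1 peak. The replicate 1 and replicate 2 midpoints were a median of 28.5 bp apart there, and 139 pairs (68.5%) were within 50 bp, while the farthest pair was 1044 bp apart. The median strength was 3.09 in replicate 1 (interquartile range 2.49 to 4.16), 6.23 in replicate 2 (3.80 to 9.19) and 9.87 in the combined list (7.14 to 13.2). At 170 of the 203 positions the replicate 2 value exceeded that of replicate 1. Across these positions Spearman's rho between replicate 1 and replicate 2 was 0.34 and Pearson's r 0.33, and r was 0.37 without the 2 positions farthest from the median of replicate 1. These are descriptions, since the positions share their libraries and are not replicates. Only positions with a q-value below 0.01 in both lists enter, and this cut can lower the correlation. The combined strengths followed replicate 2 (rho 0.87) more closely than replicate 1 (rho 0.63).

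**Figure D5:**
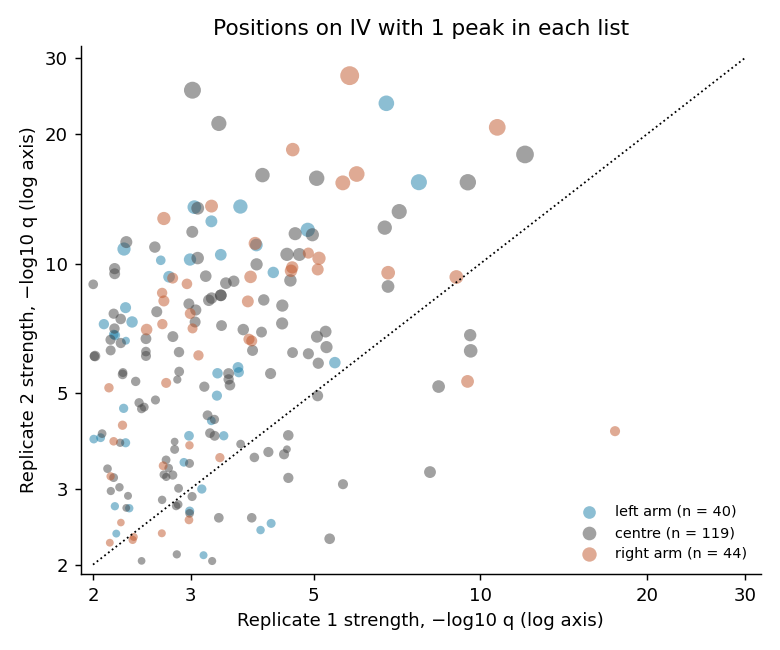
Strength (−log10 of the authors' q-value, log axes) in replicate 2 against replicate 1 at the 203 positions of IV with 1 peak in each list, coloured by section, with larger points for stronger combined peaks and a dotted line of equal strength. Replicate 2 is higher at 170 positions, and the point at the far right is the peak at the end of the right arm with 17.5 in replicate 1 and 4.08 in replicate 2.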

How the data were processed

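Per the file headers, the 3 deposited lists hold PeakSeq binding sites on build WormBase WS190. By their names, 1 list belongs to each replicate and 1 to the combined replicates. The only value deposited with a peak was the authors' q-value, a p-value adjusted for multiple testing. The PeakSeq version, the aligner, the input of each list and the way of combining replicates were not stated in the labels or headers. The depth of the libraries is unknown here, and intervals cover counting error only.

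Rows of chromosome IV were taken from each list and placed by their midpoints. The span between the outermost peaks of any list stood for the chromosome. Densities were compared with two-sided exact binomial tests, shares with Fisher's exact test, and shares carry Wilson 95% intervals. With 2 replicate lists no SD is given, and widths, gaps and strengths were not tested. The peaks named are the 10 strongest in both replicate lists, the 2 strongest of each replicate list alone, the 5 longest gaps, the 5 widest peaks and the 3 fullest windows. The strongest peak in neither list, the strongest replicate 1 peak, the longest gap of each replicate list and the groups of 4 were named after their values were seen. The members and comparisons were chosen with earlier results of these data known. Functions were tested on simulated data. Python 3.11.15, numpy 2.4.6, pandas 2.3.3, scipy 1.17.1 and matplotlib 3.10.9 were used.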

Additional observations from a re-analysis of the deposited data

How the results depend on the processing

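The centre was denser than the arms under all 6 alternatives, with ratios of 1.76 to 2.29. Among these are the replicate 1 and replicate 2 lists, each on its own, and their values here repeat those given above. The ratio of right to left arm, 0.738, was 0.818 in the stronger 50% of the list (exact binomial p = 0.205). It was 0.735 in the replicate 2 list and 1.06 in the replicate 1 list. The ratio kept its side with other borders, merged peaks and, added after the data were seen, without the end beyond the second piRNA stretch (0.679). The density of IV against II, III and V was 0.992 in the replicate 2 list and 1.04 in the replicate 1 list. Against I, II, III and V it was 0.856 in the combined list (exact binomial p = 1.65e-05). In comparisons added after the data were seen it was 0.839 without V (exact binomial p = 1.33e-05) and 1.03 without III. The first piRNA stretch had a ratio of 1.15 in the stronger 50%, 0.919 in the replicate 1 list and 1.09 in the replicate 2 list. The odds ratio of IV against II, III and V for peaks in both lists was 1.25 with reciprocal overlap of 50% (exact p = 0.0256) and 1.19 against all 5 other chromosomes (exact p = 0.0443), and that of centre against arms was 0.859 in the stronger 50%. In the stronger 50% the share in neither list was 1.32%, the overlapped shares of replicate 1 and replicate 2 peaks were 89.7% and 46.4%, the median width was 438 bp and the median gap 17.8 kb. With reciprocal overlap 73.3% of replicate 1 peaks were overlapped. The replicate 2 list on its own had a median width of 365 bp and a median gap of 14.4 kb. The replicate 1 list had 390 bp and 31.4 kb, and both lists are shorter than the combined list. The causes were not tested. No paired analysis was possible because only peak lists were compared, with 1 list per replicate number and no second group.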
